A study of Homo sapiens with 22 samples.

Results

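At 479 MTBP peaks, the signal in cells with C-terminally truncated MTBP (deltaC) was below 10% of the signal in cells with full-length MTBP (WT). The 479 were taken from the 29848 peaks on chromosomes 1 to 22 and X in the authors' list, of which 29546 had a WT signal of at least 100 and could qualify. The share was 1.62% of those 29546 peaks (lower in deltaC), and 175 peaks, 36.5% of the 479 and 0.592% of all that could qualify, had a deltaC signal of exactly 0. The members were chosen by the WT signal and the deltaC/WT ratio, so these values are a description and carry no test. Neither signal has library values beside it, so no replicate error could be given, and its unit and scaling are not stated. Whether a background was subtracted is not stated either, so a deltaC signal of 0 is the authors' listed value and may not mean that no reads were found.

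MTBP works with Treslin, and together they act when the loaded MCM helicase is turned into an active replication fork by the addition of CDC45 and GINS. CUT&RUN maps a chromatin protein by tethering a nuclease to it with an antibody, so a value at a site depends both on the protein being there and on the DNA being there in the cells. A site can therefore lose signal through loss of binding or through loss of one or all copies of the DNA, and copy-number changes usually span neighbouring sites.

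The study used DLD-1, an established colorectal adenocarcinoma line, in 22 libraries and 8 groups. FLAG CUT&RUN was done in cells of genotype MTBP-mAID/MTBP-deltaC-FLAG (3 libraries), in MTBP-mAID/MTBP-WT-FLAG cells (3 libraries) and in MTBP-mAID/MTBP-mAID cells, which carry no FLAG (3 libraries); every line thus keeps a copy of MTBP fused to the auxin-inducible degron mAID, and the labels state neither auxin treatment nor whether a line is a single clone. H3K4me2 (2 libraries) and IgG (2 libraries) CUT&RUN were done in MTBP-mAID/MTBP-WT-FLAG cells only. EdU, a labelled nucleotide analogue, was given at 10 µM for 3 hr in released deltaC cells, released WT cells (both with hydroxyurea and aphidicolin, which slow or stop forks) and G1-arrested WT cells (3 libraries each). H3K4me2, a mark of active promoters and enhancers, lay within 1 kb of 10 of 12 colorectal epithelium genes and of 7 of 12 genes of other cell types. Coordinates are those of hg38, and the RefSeq gene table and promoter sequences are those of GRCh38.p14.

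The promoters of 4 members are shown because they differ in signal and setting: the strongest peak listed at 0 in deltaC (SLC14A2, a urea transporter, where the peak covers a RefSeq start that the authors' list classes as others and annotates as intergenic), an isolated promoter listed at 0 in deltaC (EML4, a microtubule-associated protein), the strongest isolated member at the promoter of a known gene outside the end of chromosome 17 (GABARAP, a ubiquitin-like protein of autophagy) and the only member at an initiation factor gene (GINS1, a subunit of GINS). Each is the RefSeq window of 300 bases, 250 before the start and 50 after, on the gene's own strand, in lower case with GGGCGG and its reverse complement CCGCCC in capitals. SLC14A2 is chr18:45167713-45168012 on the plus strand, EML4 chr2:42169103-42169402 on the plus strand, GABARAP chr17:7242400-7242699 on the minus strand and GINS1 chr20:25407423-25407722 on the plus strand.
SLC14A2: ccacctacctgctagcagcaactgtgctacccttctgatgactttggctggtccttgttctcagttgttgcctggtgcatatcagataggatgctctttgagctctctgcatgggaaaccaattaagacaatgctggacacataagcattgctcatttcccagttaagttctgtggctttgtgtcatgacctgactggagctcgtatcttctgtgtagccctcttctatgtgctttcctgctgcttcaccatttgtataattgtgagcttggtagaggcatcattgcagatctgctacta
EML4: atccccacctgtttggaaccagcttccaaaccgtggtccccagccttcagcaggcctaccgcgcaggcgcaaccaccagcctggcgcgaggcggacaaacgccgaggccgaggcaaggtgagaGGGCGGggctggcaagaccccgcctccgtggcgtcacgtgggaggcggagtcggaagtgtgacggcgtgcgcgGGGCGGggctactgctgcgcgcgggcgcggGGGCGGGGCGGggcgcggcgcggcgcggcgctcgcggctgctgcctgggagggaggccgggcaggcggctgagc
GABARAP: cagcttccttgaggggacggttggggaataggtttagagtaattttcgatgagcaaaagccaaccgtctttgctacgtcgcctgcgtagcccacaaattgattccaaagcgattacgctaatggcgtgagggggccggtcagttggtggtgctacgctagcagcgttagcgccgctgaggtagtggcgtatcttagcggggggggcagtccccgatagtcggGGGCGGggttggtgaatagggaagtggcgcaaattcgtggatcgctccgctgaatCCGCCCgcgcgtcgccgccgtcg
GINS1: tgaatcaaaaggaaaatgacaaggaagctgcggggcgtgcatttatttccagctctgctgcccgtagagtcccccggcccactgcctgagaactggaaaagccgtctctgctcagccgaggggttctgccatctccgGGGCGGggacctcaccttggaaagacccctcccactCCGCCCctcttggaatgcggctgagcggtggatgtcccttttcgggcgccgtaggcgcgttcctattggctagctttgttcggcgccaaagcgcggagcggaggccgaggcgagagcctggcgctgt

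The 4 windows differed in composition. The SLC14A2 promoter had 46.3% G+C, 1 CpG and no GGGCGG or CCGCCC. The EML4 promoter had 75.7% G+C, 40 CpGs and 4 such matches, 2 of which share a base. The GABARAP promoter had 59.3% G+C, 31 CpGs and 2 matches, and the GINS1 promoter had 62.3% G+C, 24 CpGs and 2 matches. Among all members, 50 RefSeq windows of 44 genes lay wholly inside 38 of the peaks, and 84.0% of these windows held GGGCGG on either strand, against 73.8% of 7084 windows inside other peaks and 56.3% of all 22132 windows. CCAAT on either strand was in 32.0% of member windows, against 40.1% of windows in other peaks and 34.6% of all. TATAAA on either strand was in 1 member window (2.00%), against 3.98% in other peaks and 9.46% of all. The median G+C content was 67.8% in member windows, against 65.7% in windows of other peaks. Some genes have several overlapping windows, so these shares describe the windows and do not weigh genes equally.

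Members had a low WT signal as a group. Their deltaC signal had a median of 7.21 and a highest value of 263, and their WT signal had a median of 211, with a highest value of 2769. The other 29067 peaks had a median deltaC signal of 205 and a median WT signal of 377. The median deltaC/WT of all 29546 peaks was 52.1% (quartiles 39.9% and 65.8%). Members fell off steeply with WT signal: they were 6.53% of the tenth of peaks with the lowest WT signal and 0.237% of the tenth with the highest. Members were also narrower (median 723 bp, against 947 bp in other peaks) and had a lower authors' peak score (median 121, against 201). Below a WT signal of 400 both differences were smaller. From 100 to 200 the median width was 570 bp in members and 564 bp in others, and the score 103 and 108. From 200 to 400 these were 775 and 806 bp, and 140 and 160. At 400 or more they were 971 and 1270 bp, and 277 and 312.

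**Figure D1:**
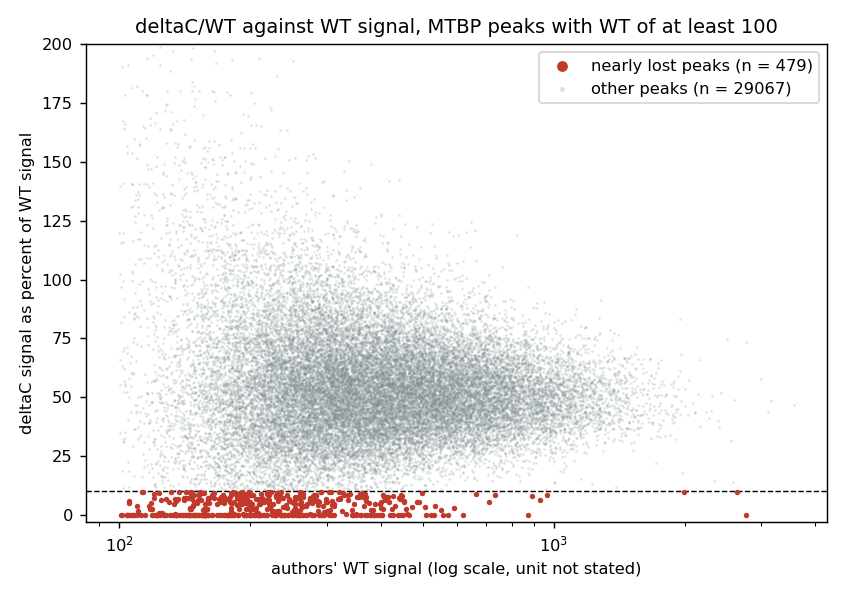
deltaC signal as a percent of WT signal against the WT signal on a log axis, for 479 nearly lost peaks (red) and 29067 other peaks (grey). The dashed line is the 10% limit. The red points lie mostly at a WT signal below 400, with 3 far to the right. A further 27 other peaks above 200% are off the axis.

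The limit fell in a continuous range and not in a gap. There were 283 peaks below 5%, 196 from 5 to 10%, 301 from 10 to 15% and 495 from 15 to 20%. Just inside the limit, a peak near CCBE1 had 26.0 in deltaC and 261 in WT (9.96%), the peak at chr17:83050021-83052381 had 263 and 2637 (9.97%), and the RNF26 promoter peak had 22.3 and 224 (9.97%). Just outside it, a peak near LMAN2 had 19.2 in deltaC and 192 in WT (10.0%), one nearest to ZNF507 had 30.1 and 299 (10.1%), and one near ASPRV1 had 14.6 and 145 (10.1%). All 479 members are peaks named for WT in the list. None of the 667 peaks named for deltaC with a WT signal of at least 100 is a member. How the names were given is not stated. They may follow the same signals as the rule, so this is a description only.

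Most members had no member directly beside them. With the 29546 peaks in position order, 423 members (88.3%) had no member directly before or after, 36 (7.52%) formed 18 pairs, and 20 (4.18%) formed 6 runs of 3 or 4. The next peak along the chromosome was also a member for 32 of 479 (6.68%), where the share of members among all peaks that could qualify was 1.62%. The distance to the nearest other member had a median of 905 kb. Measured by distance, 47 of the 423 isolated members had another member within 100 kb, and 29.0% of all members had at least 2 others within 1 Mb. Of 2435 one-megabase bins with a peak, 374 held a member, and 306 of these held a single one. A deltaC signal of exactly 0 was found at 13 of 20 run members (65.0%), 14 of 36 pair members (38.9%) and 148 of 423 isolated members (35.0%).

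For most isolated members, the peaks beside them were not low. Their 5 nearest non-members on each side, 3859 peaks, had a median deltaC/WT of 49.3%, against 52.5% in all other peaks. The 95% interval of the 49.3% was 48.6 to 50.2%, taking peaks as independent, which neighbouring peaks may not be. It holds no replicate error and carries no test of the difference. Without chromosome 17 the medians were 50.3% and 53.0%. Taken one isolated member at a time, the median of its own neighbours was below 20% for 5, from 20 to 40% for 64, from 40 to 60% for 298 and 60% or more for 56. At 170 isolated members, the nearest other peak lay within 10 kb, and these close neighbours had a median deltaC/WT of 45.0% (quartiles 33.4% and 59.7%). Members were removed from the neighbours, which bounds the neighbours' values at 10% from below. A further 55 isolated members had no other peak within 100 kb, so their surroundings were not measured at that distance.

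**Figure D2:**
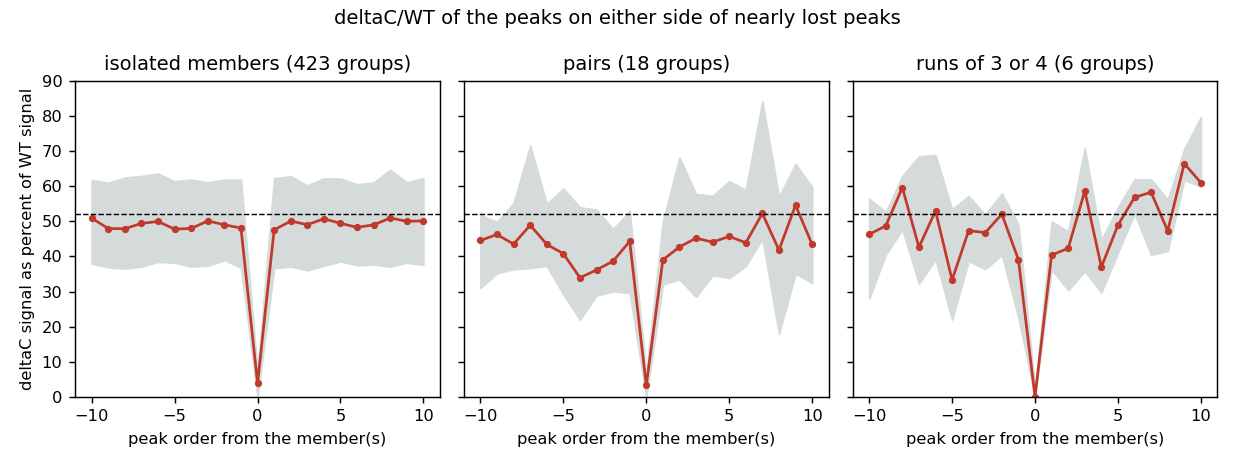
Median deltaC signal as a percent of WT signal (line) and quartiles (band) of the peaks before and after a nearly lost peak, by order along the chromosome, for isolated members, pairs and runs (order 0 is the members themselves). The dashed line is the list's median of 52.1%. In the isolated panel the neighbours sit near 50% on both sides from the first peak outward, where the members had a median of 3.84%.

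Of the 10 isolated members with the highest WT signal, 5 lay in a stretch of low deltaC/WT at the end of chromosome 17. There, the peak at chr17:83050021-83052381, at an end of LOC124904094, had 263 in deltaC and 2637 in WT, and its neighbours had a median deltaC/WT of 15.8%. Also there were 2 peaks in introns of TBCD, a tubulin folding cofactor: chr17:82873056-82877584 in intron 14 had 195 in deltaC and 1999 in WT, and chr17:82778319-82780807 in intron 6 had 0 in deltaC and 618 in WT and no H3K4me2. The promoter peaks of FN3K and near FN3KRP, which encode enzymes that act on glycated proteins, had 11.6 and 72.7 in deltaC, against 550 and 894 in WT, with neighbours at 19.5% and 20.3%. In all 5 of these the neighbours were below the list's quartile of 39.9%.

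The other 5 of these 10 had 5 neighbours on each side with medians of 52.7 to 67.3%, but at 3 of them the nearest peaks were far away. A peak in a MER104 repeat, nearest to CACNA1E, a calcium channel subunit, had 58.3 in deltaC and 931 in WT (6.26%), and its neighbours had a median of 67.3%. The peaks directly before and after it lay 354 and 423 kb away, with 28.9% and 113%. A peak in a LINE repeat near ZFHX3, a homeobox transcription factor, had 63.2 in deltaC and 733 in WT, with neighbours at 60.3%, the nearest 517 and 525 kb away. A peak in exon 3 of the non-coding CYP2U1-AS1 near SGMS2, a sphingomyelin synthase, had 39.5 in deltaC and 708 in WT. The next peak after it, 9.71 kb away, had 468 in deltaC and 929 in WT. The peak nearest to XIRP2, an actin-binding protein of muscle, had 17.3 in deltaC and 589 in WT, with neighbours at 56.8%, the nearest 481 and 1144 kb away.

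At the GABARAP promoter (chr17:7241475-7243329) the signal was 60.02 in deltaC and 664 in WT (9.04%). The peak before it, 4.54 kb away, had 138 in deltaC and 138 in WT, and the peak after it, 10.1 kb away, had 274 in deltaC and 405 in WT. The EML4 promoter peak (chr2:42168594-42169985) had 0 in deltaC and 377 in WT, while the peaks 27.2 kb before and 26.3 kb after had 83.2% and 87.7% of their WT signal. The peak at chr11:6480875-6482447 covers the shared start region of ARFIP2, which binds small GTPases, and TIMM10B, of mitochondrial protein import, and had 20.5 in deltaC and 533 in WT. The peak 7.54 kb before it kept 57.7%. At each of these promoters the low signal was thus a single peak between others near the list's median or above it. These promoters other than GABARAP and GINS1 were named after their values were seen.

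By definition a run or pair encloses no other peak with a WT signal of at least 100, so its length shows how far apart such peaks lie. The 6 runs spanned 13.9 to 664 kb and the 18 pairs 3.18 to 3532 kb. The rule holds every member below 10%, so a low summed ratio follows from it. The summed deltaC signal was below 3% of the summed WT signal in all 6 runs. The 24 runs and pairs enclosed no MTBP peak but their own members, which are all named for WT. The run on chromosome 8 (95805428 to 96173624, 368 kb) holds 4 peaks around GDF6, a BMP-family ligand. Their deltaC signals were 0, 0, 0 and 10.9, against 208, 122, 570 and 404 in WT, a summed 0.835%. The 10 peaks on each side had a median deltaC/WT of 54.0%, and the nearest retained peaks lie 965 kb apart across the run. The AUTS2 run (chromosome 7, 69907605 to 70571859, 664 kb) lies inside the body of AUTS2, a large gene of neural development that was listed here among common fragile sites. Its 3 peaks had 30.5, 0 and 0 in deltaC, against 443, 438 and 508 in WT, and the flanking peaks had a median of 45.2%. No other peak with a WT signal of at least 100 lies between 67303246 and 72326213, a stretch of 5023 kb, so the ends of the low signal there can be placed only within that stretch.

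The remaining runs outside distal 17 held no end of a protein-coding gene. On chromosome 10 (44393069 to 44753363), between CXCL12, a chemokine, and TMEM72, 3 peaks had 1.96, 0 and 0 in deltaC, against 351, 250 and 357 in WT, and the flanks had a median of 57.6%. On chromosome 15 (93523406 to 93829881), 528 kb from MCTP2, 3 peaks had 19.3, 0 and 0 in deltaC, against 398, 555 and 426 in WT, with flanks at 44.8%, although the peak directly before the run was at 14.1%. On chromosome 4 (29717428 to 30209371), 3 peaks had 7.60, 0 and 11.5 in deltaC, against 380, 386 and 254 in WT, with flanks at 55.5%. The peaks directly before and after that run were at 34.1% and 39.0% and lie 3409 kb apart. Its flanking peaks include another member, at PCDH7, with 26.3 in deltaC and 353 in WT. In the 5 runs outside distal 17, the flank medians were thus 44.8 to 57.6%.

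**Figure D3:**
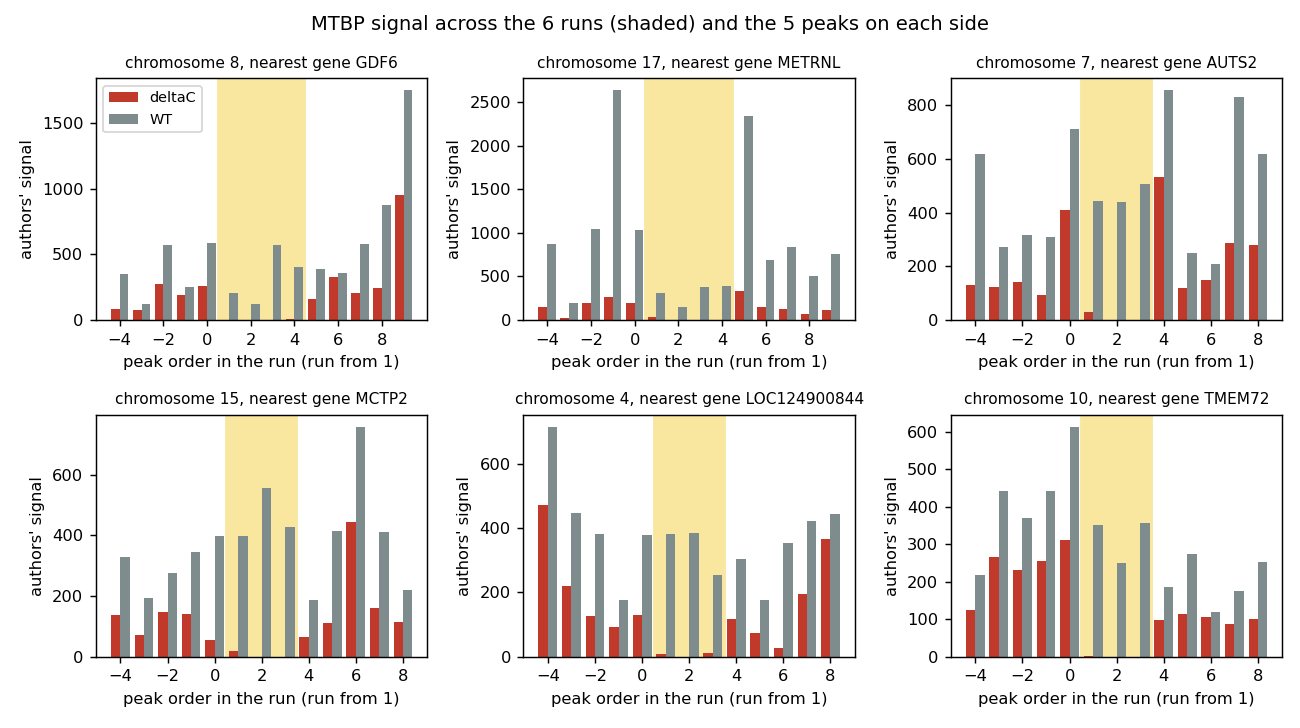
The authors' signal in deltaC (red) and WT (grey) for each peak of the 6 runs (shaded) and the 5 peaks on each side, in order along the chromosome. In the runs on chromosomes 8, 7, 15, 4 and 10 the flanking deltaC bars are visible on both sides, while inside the runs deltaC is 30.5 or less. In the METRNL run on chromosome 17 the flanking deltaC bars are also visible, but low relative to their WT bars, which reach 2637.

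The strongest peak listed at 0 in deltaC stood in a pair. At SLC14A2 on chromosome 18, the peak at 45166043 to 45168120 had 0 in deltaC and 2769 in WT, and the next peak, 192 kb away, had 0 in deltaC and 404 in WT. The peak before the pair kept 64.3% and the peak after it 63.5%, and these lie 3855 kb apart. On chromosome 16, a pair 3532 kb across from CDH8 to CDH11, which encode cadherins, had 16.9 and 0 in deltaC, against 471 and 873 in WT, with the next peaks at 45.8% and 47.6%. On chromosome 2, a pair nearest to LRRTM4 and CTNNA2, a neural alpha-catenin, had 0 and 0 in deltaC, against 312 and 146 in WT. On chromosome 21, a pair on either side of ADAMTS5, an aggrecan-cleaving protease, had a summed deltaC signal of 0.442% of WT with flanks at 59.5%, although the peaks directly before and after were at 22.2% and 36.7%. Other pairs lie close together: the pair at TNNC1 and NISCH on chromosome 3 spans 17.2 kb and had 1.34 and 7.18 in deltaC, against 332 and 243 in WT, and the pair at UPF1 on chromosome 19 spans 11.6 kb. The pairs were named after their values were seen.

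The end of chromosome 17 held a broad stretch of low deltaC/WT. From 81 Mb to the end, 21 of 114 peaks were members (18.4%), against 46 of 1428 (3.22%) on the rest of the chromosome. The median deltaC/WT of all 114 peaks was 21.5% (quartiles 13.3% and 33.3%), against 44.0% on the rest of 17, and 3 of the 114 lay above the list's median. Thus peaks there that were not members were low too, and the 10% limit cut through their range. The 21 members comprise 11 isolated peaks, 3 pairs and the run at METRNL, which encodes a secreted factor. That run (83069022 to 83082946, 13.9 kb) had 29.9, 0, 0 and 0 in deltaC, against 307, 155, 380 and 393 in WT, and its flanks had a median of 14.2%. The 81-Mb boundary was set with these values known.

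Across chromosomes, the share of members was 4.35% on 17 (67 of 1542), 3.20% on 19, 2.58% on 16 and 2.40% on 20, and 0.613% on 6 (11 of 1795). The median deltaC/WT over all peaks was 42.8% on 17, 43.8% on 19, 47.9% on 16 and 50.8% on 20, and 56.1% on 6. Of 1823 one-megabase bins with at least 5 peaks, 8 had a median below 30%, and 3 of these are the last 3 of chromosome 17. Members within 5 Mb of a chromosome end made up 19.2% of the 479, against 8.47% of other peaks, and 15.8% against 7.995% without chromosome 17. Whether the DNA of these places was present in full in the deltaC line was not tested.

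**Figure D4:**
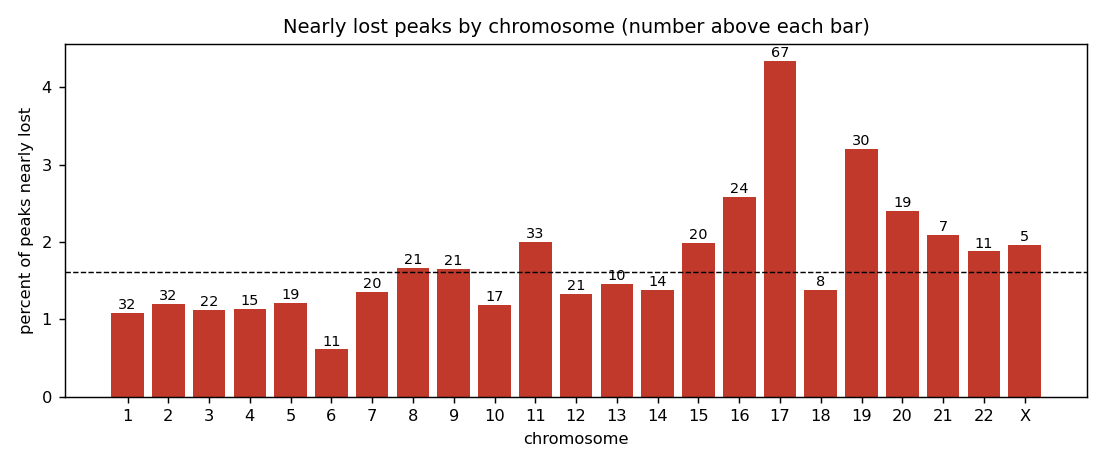
Percent of peaks with a WT signal of at least 100 that were nearly lost, by chromosome, with the number of members above each bar and the overall 1.62% as a dashed line. Chromosome 17 is highest at 4.35% and chromosome 6 lowest at 0.613%.

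H3K4me2 was not used to choose the peaks. It overlapped 450 of 479 members (93.9%, 95% Wilson interval 91.4 to 95.8%), against 99.1% of other peaks. The intervals here cover counting error only and take peaks as independent. Where a peak overlapped H3K4me2, the authors' fold enrichment of the mark had a median of 16.1 at members, against 23.8 at other peaks. With the H3K4me2 peaks in 4 equal groups by fold, members made up 4.86% of the MTBP peaks at the weakest group, then 3.14%, 1.51% and 0.801% at the strongest. Low WT signal moved with the overlap. Among peaks with a WT signal of 100 to 200 the overlap was 89.9% in members and 95.6% in others. From 200 to 400 it was 97.6% and 99.0%, and at 400 or more it was 96.2% (50 of 52) and 99.9%. The median fold was lower in members in each band: 14.1 against 18.6, then 17.5 against 21.5, then 16.4 against 26.6. The runs and pairs enclosed 88 H3K4me2 peaks, 39 of them in runs, so the mark was present in WT cells within these spans. The deltaC signal is listed only at the members. Of these, 18 of 20 in runs and 32 of 36 in pairs overlapped the mark.

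The 29 members without H3K4me2 had WT signals from 101 to 618 (median 158). Of these, 16 had a deltaC signal of 0, 9 lay on chromosome 17 and 23 were isolated. The TBCD intron 6 peak described above was the strongest of them.

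The authors' classes were split as follows, and the split depended on the WT signal. The promoter class held 142 members (29.6%, interval 25.7 to 33.9%), against 34.9% of other peaks. The enhancer and super-enhancer class held 62 (12.9%, interval 10.2 to 16.2%), against 17.7%, and the class of others held 275 (57.4%, interval 52.9 to 61.8%), against 47.4%. Among peaks with a WT signal of 100 to 200 the promoter share was 29.0% in members and 31.7% in others, from 200 to 400 it was 31.9% and 32.6%, and at 400 or more it was 23.1% (12 of 52) and 37.8%. The enhancer share in these bands was 14.7% and 13.6%, then 12.9% and 15.4%, then 5.77% (3 of 52) and 20.9%. Members with a deltaC signal of 0 were in the promoter class in 22.9% of cases, against 33.6% of members above 0. By kind, 31.4% of isolated members, 7 of 36 pair members and 2 of 20 run members were in that class. In the authors' annotation, 11.9% of members were at a promoter or start site, against 19.0% of others, 24.8% were intergenic, against 20.6%, and 3.34% were at a transcript end, against 1.54%.

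Strong and weak members differed. The 52 members with a WT signal of 400 or more were in the class of others in 71.2% of cases, against 41.4% of other peaks of that signal. For a WT signal of 100 to 200 the shares were 56.2% and 54.6%. Of these 52, 15 (28.8%) stood in a run or pair, against 9.60% of the 427 weaker members. The number of protein-coding gene ends within 500 kb had a median of 10 at the 52, against 21 at the weaker members, and of 16 at all other peaks. It was 5 at the 20 run members.

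In the enhancer class, the strongest member after the TBCD intron 14 peak was in intron 6 of MED16, a subunit of Mediator, with 32.0 in deltaC and 440 in WT, and its neighbours had a median of 28.6%. The peak at SFXN3, a mitochondrial carrier, had 22.7 in deltaC and 418 in WT, with neighbours at 62.6%. A peak near CTSD, the lysosomal protease cathepsin D, had 0 in deltaC and 385 in WT. The peaks 6.44 kb before and 2.23 kb after it had 51.1% and 43.2% of their WT signal. In the promoter class, a peak in MYO15B had 80.98 in deltaC and 964 in WT and formed a pair with a peak of 0 in deltaC and 292 in WT.

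Initiation zones are the authors' EdU-seq regions, and the libraries behind them are not named. Of the members, 158 (32.99%, interval 28.9 to 37.3%) lay in a zone, against 22.9% of other peaks. The share was 29.6% against 21.8% without chromosome 17. It depended on the WT signal: 34.1% against 20.6% from 100 to 200 and 35.7% against 21.4% from 200 to 400. At 400 or more it was 17.3% (9 of 52) against 24.9%. Peaks in zones that were not members also had lower values than peaks outside zones, with a median deltaC/WT of 45.8% against 54.6%. The 158 members lay in 142 zones, and 127 of these zones also held a peak that was not a member. Those 708 retained peaks had a median deltaC/WT of 43.4%.

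**Figure D5:**
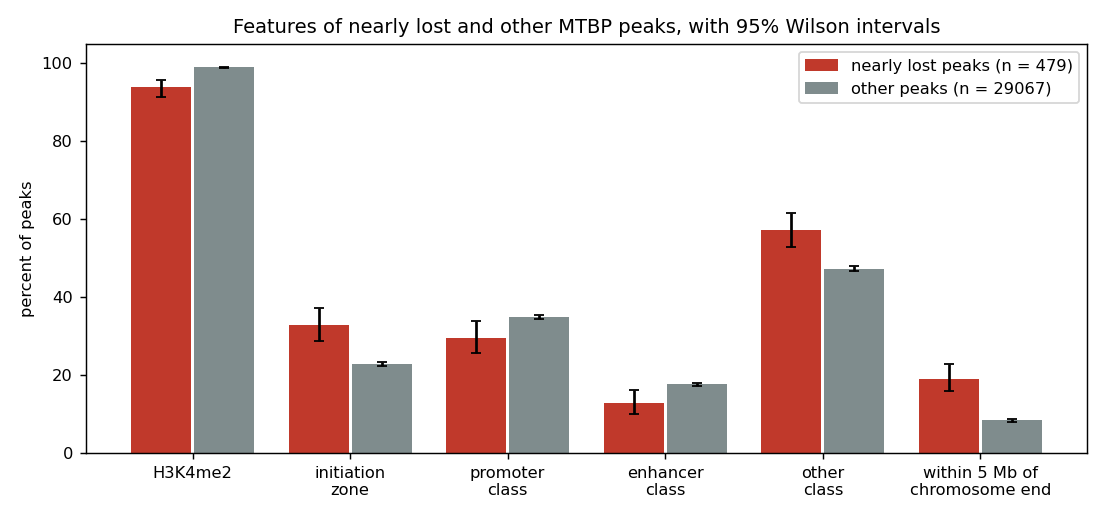
Percent of nearly lost peaks (red, n = 479) and of other peaks (grey, n = 29067) that overlap H3K4me2, lie in an initiation zone, fall in each of the authors' classes or lie within 5 Mb of a chromosome end. Bars start at 0 and error bars are 95% Wilson intervals. Nearly lost peaks are lower for H3K4me2 and the promoter and enhancer classes, and higher for zones, other sites and chromosome ends.

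Among gene lists, 27 of 34 initiation factor genes had a peak with a WT signal of at least 100 within 1 kb of an end, and 1 of their 28 peaks was a member, a count too small to set apart from the 1.62% over all peaks. It is at GINS1 (chr20:25407311-25408258), with 12.7 in deltaC and 252 in WT (5.05%), where the list's peaks had a median of 53.3%. The peaks 16.98 kb before and 89.4 kb after it kept 41.3% and 57.7%. At MTBP itself the promoter peak had 262 in deltaC and 408 in WT (64.1%), and none of the 50 peaks within 2 Mb of the gene was a member. No member was among the 12 gene-and-peak entries within 1 kb of an end of published origin loci or the 9 of fragile-site genes. None was among the 9 of colorectal epithelium genes or the 20 of often-deleted tumour suppressor genes. A peak shared by listed genes was entered once per gene: LMNB2 with TIMM13, MCM4 with PRKDC, and KRT8 with KRT18. With 1.62% of all peaks being members, these lists are too short to show a lack. The medians over these entries were 52.7%, 69.9%, 53.1% and 50.6%. The lowest ratio among the tumour suppressors was at STK11, a kinase, with 36.2 in deltaC and 242 in WT (15.0%).

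Loss of the DNA and loss of binding are both considered here, with the values beside the members. Among isolated members, 83.7% of 423 had neighbours with a median of 40% or more, 64 had one of 20 to 40% and 5 one below 20%, and 55 had no peak within 100 kb. For the runs outside distal 17 and the SLC14A2 pair, the values beyond the members are flank medians of 44.8 to 57.6%, and between the members no other peak was there to be measured. For distal 17, the deltaC/WT ratios are low over most of the 114 peaks. Neither the copy number of the deltaC line nor a second chromatin mark in it was analysed here. H3K4me2 was mapped in WT cells only. The 2 kinds of loss therefore cannot be told apart at any of these sites. With no library values, whether a low ratio came from the WT or the deltaC value, or from variation between libraries, was not tested.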

How the data were processed

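The authors used tools that include Trim Galore, Bowtie2, HOMER and MACS2, on hg38, per the submitters' processing notes. No source used here gives versions, parameters or pooling of replicates, and the depth of the libraries is unknown. The deposited MTBP list gives a signal value per line (WT and deltaC) and a peak score, per the file headers. The deposited zone list gives an average score, and the deposited H3K4me2 list gives a score, a fold enrichment and −log10 p column, of which the score and the fold were used. No per-sample column was left unused (0). The ratio deltaC/WT was computed here, with no pseudocount and no test, because the lists hold no library values.

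Members had a WT signal of at least 100 and a ratio below 10%. Overlap meant at least 1 bp, and a run at least 3 consecutive members. Genes were the nearest RefSeq protein-coding gene by either end. Named were the genes of runs, the 10 isolated members and 5 of each class with the highest WT signal, the 3 peaks on each side of the limit, and members within 1 kb of a listed gene; others are marked in the text. Members and lists were chosen with earlier results of these data known. Alternatives covered the limits, the overlap rules, the runs and chromosome 17. Python 3.11.15, pandas 2.3.3 and SciPy 1.17.1 were used, and the steps were tested on simulated data.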

Additional observations from a re-analysis of the deposited data

How the results depend on the processing

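No paired analysis was possible because the lists hold 1 value per line with no library values, and for the same reason no replicate could be left out. The number of members was 479, and 283 with the limit at 5%, 1275 at 20%, 262 with a WT signal of at least 200, and 291 where deltaC was first divided by the median ratio. The share in runs was 4.18%, and 29.0% by at least 2 other members within 1 Mb, and 11.7% where pairs counted as runs. The H3K4me2 share of 93.9% became 54.3% where the H3K4me2 peak had to reach the median score (84.2% in other peaks) and 97.3% with a WT signal of at least 200, an alternative chosen after seeing the data. The zone share of 32.99% became 47.4% with zones widened by 50 kb (37.8% in other peaks) and 27.6% with zones of at least the median score (17.7%). The promoter share of 29.6% became 20.5% by a gene end within 1 kb (26.0%). The neighbours' median of 49.3% stayed between 49.0% and 49.7% with 2 or 10 neighbours or neighbours of any WT signal.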

Other observations

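Repeats were annotated at 93 members (19.4%), against 20.6% of other peaks. The MER77 repeat was at 3 members and 10 other peaks, and those 3 members were isolated and lay on chromosomes 4, 15 and X, near TNIP2, LDHAL6B and PWWP3B. Their deltaC signals were 4.15, 0 and 8.79, against 160, 346 and 384 in WT. This repeat was singled out after its values were seen.

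Below the WT minimum of 100 were 302 peaks, of which 17 had a ratio below 10% and 11 a deltaC signal of 0.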
